A study of Mus musculus with 10 samples.

Results

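The 10 genes described here are targets and partners of the glucocorticoid receptor, together with the metallothioneins. They were taken by symbol from the deposited count table: Fkbp5, Tsc22d3, Zbtb16, Sgk1, Klf9, Cebpb, Cebpd, Mt1, Mt2 and the receptor gene Nr3c1. All 10 were found, of 40690 genes in the table, and all 10 passed the filter on low counts. The samples were heart ventricles of male C57BL/6 mice aged 10 weeks, 5 samples from naive mice without surgery and 5 from mice after a sham operation, the surgical control for ischemia-reperfusion. No group carries a transgene or drug treatment in the labels. Polyadenylated RNA was sequenced as single-end reads without strand, 1 library per sample. The labels state neither the interval between surgery and collection nor the hour of collection.

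Corticosterone, the main glucocorticoid of mice, enters cells and binds the glucocorticoid receptor, which waits in the cytoplasm in a complex with Hsp90 and co-chaperones. The bound receptor moves to the nucleus, binds glucocorticoid response elements and raises a set of target genes, some of which feed back on the receptor or on inflammation. Cardiomyocytes, fibroblasts, endothelial cells and macrophages of the heart all carry the receptor. Metallothioneins are small cysteine-rich proteins that bind zinc and copper. Their genes answer to metals through the factor Mtf1 and metal response elements, and are also raised by glucocorticoids and by IL-6 signalling.

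Promoter sequence from RefSeq (GRCm38.p6) was listed for 7 of the 10 genes, at 14 start sites, as 300 bases from 250 before to 50 after each start. Both strands were searched for 6 motifs: the full glucocorticoid response element (AGAACA and TGTTCT with any 3 bases between), its looser core (GNACA and TGTNC with any 3 bases between), the single arm AGAACA of that element, the metal response element core (TGCACNC or TGCGCNC), a C/EBP element (TTGCNNAA) and the E-box CACGTG. The full element contains the looser core and 2 arms, so these matches overlap. The 250 bases before 4 starts are shown because these genes carry the contrasts described below. Capitals mark the looser glucocorticoid core and the metal core in Mt1, the metal cores and the C/EBP element in Mt2, the full glucocorticoid element in Sgk1 and the E-box in Fkbp5.
Mt1: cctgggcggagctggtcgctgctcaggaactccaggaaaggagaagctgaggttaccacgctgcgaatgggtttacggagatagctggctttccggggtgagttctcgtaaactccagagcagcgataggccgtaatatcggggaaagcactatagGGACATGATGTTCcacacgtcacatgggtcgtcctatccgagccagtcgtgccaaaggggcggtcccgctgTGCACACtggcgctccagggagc
Mt2: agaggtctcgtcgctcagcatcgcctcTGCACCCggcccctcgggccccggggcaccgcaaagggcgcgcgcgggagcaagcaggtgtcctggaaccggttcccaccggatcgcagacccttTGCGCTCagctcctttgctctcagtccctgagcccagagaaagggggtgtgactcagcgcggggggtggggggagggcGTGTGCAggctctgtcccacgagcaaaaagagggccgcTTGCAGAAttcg
Sgk1: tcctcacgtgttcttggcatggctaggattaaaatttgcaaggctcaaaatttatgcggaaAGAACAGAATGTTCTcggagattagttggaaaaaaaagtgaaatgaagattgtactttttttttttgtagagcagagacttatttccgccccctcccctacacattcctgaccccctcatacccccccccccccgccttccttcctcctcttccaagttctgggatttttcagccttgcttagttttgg
Fkbp5: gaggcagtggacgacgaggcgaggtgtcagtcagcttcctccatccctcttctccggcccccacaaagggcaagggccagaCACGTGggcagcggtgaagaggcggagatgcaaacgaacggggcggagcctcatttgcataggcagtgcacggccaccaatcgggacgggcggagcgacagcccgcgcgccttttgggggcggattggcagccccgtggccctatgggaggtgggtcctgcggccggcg

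These stretches lie at chr8:94178839-94179088 (plus strand) for Mt1, chr8:94172368-94172617 (plus strand) for Mt2, chr10:21993640-21993889 (plus strand, 1 of 6 listed starts) for Sgk1 and chr17:28486150-28486399 (minus strand) for Fkbp5. The full glucocorticoid element was present in 3 of 32851 promoter windows in the table (0.00913%), and 1 of these 3 was the Sgk1 window shown, with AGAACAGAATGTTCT from -189 to -175 of the start. The looser core was found in 0.475% of all windows and, among the 10 genes, in the same Sgk1 window and in Mt1 (GGACATGATGTTC, -94 to -82). Single arms were found in 19.0% of all windows and in 4 of the 14 windows of these genes, 3 of Sgk1 and 1 of Tsc22d3. Metal cores were found in 25.7% of windows, and 1.97% held 3 or more; the Mt1 window held 3 (2 of them after the start), the Mt2 window 4 (1 after the start) and 1 Sgk1 window held 1. The C/EBP element (10.8% of windows) was found in Mt2 and in 1 Sgk1 window, and the E-box (7.15%) in Fkbp5 and in the Sgk1 window shown. Fkbp5, Klf9, Cebpb and Mt2 had no match to any of the 3 glucocorticoid patterns in these windows. A match describes letters only, and the lack of a match covers only these windows, since sequence farther away or within the genes was not searched.

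Of the 10 genes, 3 rose in sham ventricles (Fkbp5, Cebpd and Mt2), 1 fell (Nr3c1) and 6 did not pass the test (edgeR's quasi-likelihood test over 13622 genes, with p-values adjusted by Benjamini-Hochberg and a threshold of 0.05). That is 40.0% of the genes, against 32.7% of all genes tested, so the share called is near the background. The 3 higher genes are 30.0% against 17.2% of all genes, and the 1 lower gene 10.0% against 15.5%. The median log2 fold change over the 10 genes was 0.06, and over all genes tested it was -0.05. In 3 genes every sham library lay above every naive library (13.6% of all genes tested), in 1 every sham library lay below (9.18%), and in 6 the groups overlapped. Values are given below as CPM (read counts scaled to a common library size) after TMM normalisation, library by library.

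**Figure D1:**
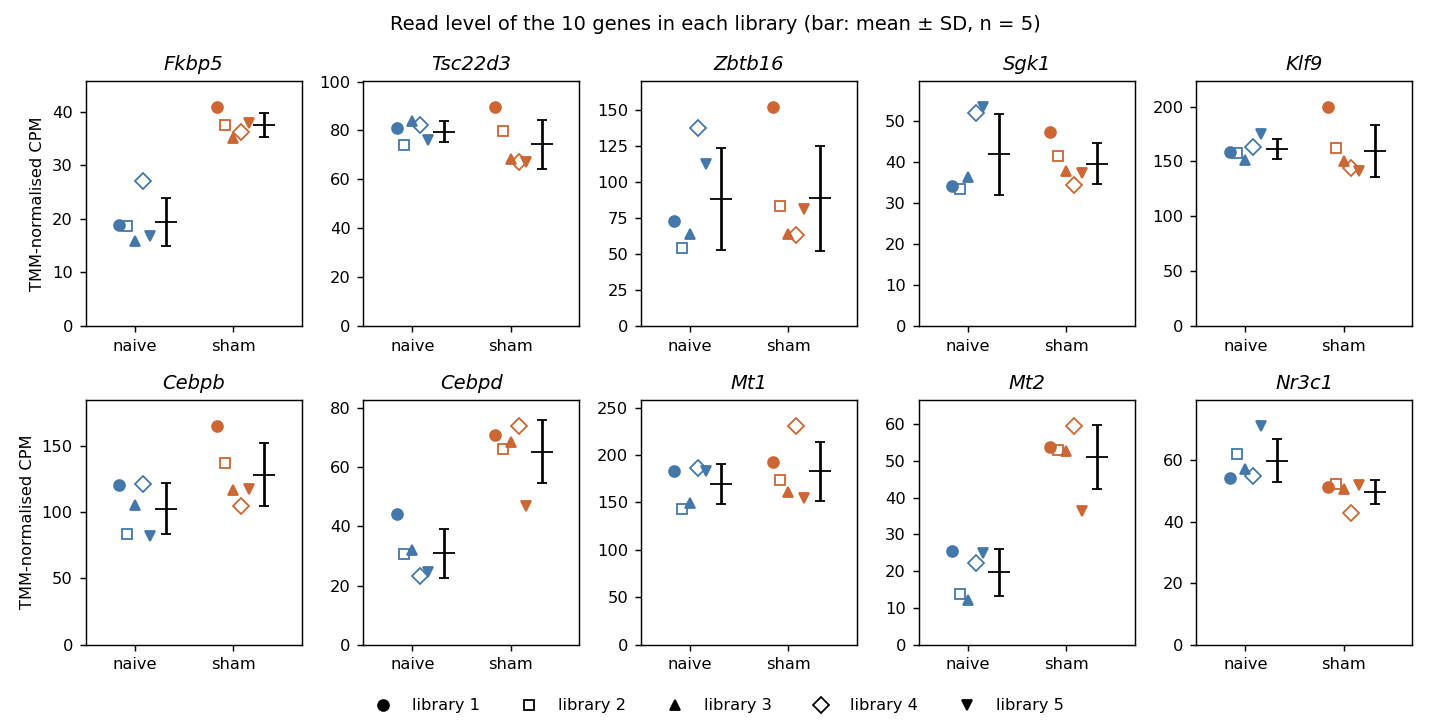
TMM-normalised CPM of the 10 genes in each of the 5 naive (blue) and 5 sham (orange) libraries, with a symbol for each library number and a bar for the mean ± SD. Fkbp5, Cebpd and Mt2 separate upward and Nr3c1 separates downward, whereas the points of the other 6 genes overlap.

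Library totals ran from 9683181 to 21537135 counts, and 3 counts corresponded to 0.122 to 0.357 CPM, far below all 10 genes (counting error only). Each library is labelled as its own sample, but the labels do not tell animals apart. The tests therefore weigh differences only against the scatter among these 10 libraries, which may be partly technical. The ventricle was checked against fixed markers. Of 9 cardiomyocyte markers 8 fell, and their sum stood at 79068 to 82847 CPM in naive and 58945 to 68194 in sham libraries, and the atrial marker Sln had 0 counts in naive and 1 in sham libraries. All 12 macrophage and monocyte markers rose, with sums of 443 to 542 CPM in naive and 1395 to 1718 in sham libraries, and 7 of 8 fibroblast markers rose, from sums of 1124 to 1627 to sums of 11526 to 21107 CPM. The fibroblast sums in sham libraries were mainly the collagen genes Col1a1 and Col3a1, with sham means of 8598 and 6944 CPM. Of the other fibroblast markers, Pdgfra rose 1.47-fold, Tcf21 1.60-fold, Dpt 2.36-fold, Lum 2.54-fold and Postn 11.9-fold, and Dcn did not pass. Of 6 endothelial markers 3 fell. Of 7 neutrophil markers 2 could be tested and both rose (sums of 1.90 to 4.86 and 14.6 to 33.6 CPM), as did the 1 lymphocyte marker of 7 that could be tested (sums of 0.869 to 2.40 and 2.50 to 3.75 CPM). Of 6 mural markers 1 rose, of 5 erythroid markers 0 passed, and of 5 mesothelial markers 2 fell. Of 4 tested skeletal muscle markers 1 fell, of 3 tested atrial markers 1 rose (Nppa), and none of 5 adipocyte markers reached the filter. In bulk tissue, fewer cells of a type and less RNA per cell cannot be told apart, and the part of these cell markers in the values below was not tested.

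Fkbp5 encodes FKBP51, the Hsp90 co-chaperone that lowers the receptor's affinity for hormone and so closes a feedback loop. Its gene spans 28399094 to 28517527 on the minus strand of chromosome 17 (GRCm38, GENCODE M21). In naive libraries 1 to 5 it stood at 18.8, 18.6, 15.8, 27.1 and 16.8 CPM, and in sham libraries 1 to 5 at 40.8, 37.5, 35.1, 36.1 and 37.9 CPM. The sham libraries lay close together, within 1.16-fold, and all above naive 4, the highest naive library. The fitted rise was 1.93-fold, with a 95% interval of 0.68 to 1.22 on the log2 scale (log2 fold change 0.95 ± 0.13, SE, n = 5, edgeR adjusted p = 3.14e-05). Without naive 4 the log2 fold change was 1.10, the highest among the fits that left out 1 library.

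The other 4 direct targets did not pass the test. Of these, Zbtb16 had a 95% interval of its fold (0.600 to 1.67) that overlaps the interval of Fkbp5 (1.60 to 2.32). Tsc22d3 encodes GILZ, an anti-inflammatory leucine zipper protein that is a standard reporter of glucocorticoid action. Tsc22d3 was at 81.1, 74.2, 83.9, 82.4 and 76.0 CPM in naive libraries 1 to 5 and at 89.5, 79.6, 68.5, 67.2 and 67.0 CPM in sham libraries 1 to 5. Sham 1 held the highest value of all 10 libraries and sham 5 the lowest. Its fitted fold was 0.934, with a 95% interval of 0.815 to 1.07 (adjusted p = 0.450).

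Sgk1, a kinase that raises ion transport and cell survival and whose promoter window holds the full glucocorticoid element shown above, was at 34.3, 33.5, 36.5, 52.1 and 53.4 CPM in naive libraries 1 to 5. Sham libraries 1 to 5 had 47.3, 41.4, 37.8, 34.3 and 37.4 CPM of it. The naive libraries split into 3 low and 2 high, and all sham values fell between the lowest and highest naive values. The fold was 0.941 (95% interval 0.766 to 1.16, adjusted p = 0.673).

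Zbtb16, which encodes the zinc finger repressor PLZF, had the widest spread of the 10 genes. It was at 73.2, 54.1, 64.1, 138 and 112 CPM in naive libraries 1 to 5 and at 152, 83.1, 63.7, 63.3 and 81.3 CPM in sham libraries 1 to 5. Naive 4, naive 5 and sham 1 were high and the other 7 libraries were at or below 83.1 CPM. The within-group SD of its log2 CPM was 0.540, against a median of 0.155 over 3800 genes in the same range of mean level, of which 0.816% varied more. The fold was 1.00 with a 95% interval of 0.600 to 1.67 (adjusted p = 0.999), so the interval spans a fall and a rise of those sizes. Without sham 1 the log2 fold change was -0.28, and without naive 4 it was 0.21, neither past the threshold.

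Klf9, a zinc finger factor that follows both glucocorticoids and the daily clock, had a within-group SD of log2 CPM of 0.154, near the median of 0.155 for its range of levels. That SD pools unlike groups, with 0.080 among naive and 0.202 among sham libraries. Naive libraries 1 to 5 were at 158, 157, 151, 163 and 175 CPM of Klf9 and sham libraries 1 to 5 at 199, 162, 150, 144 and 141 CPM. Sham 1 lay above every naive library and sham 2 within the naive range. Sham 3, sham 4 and sham 5 lay below every naive library, sham 3 only just. Its fold of 0.989 had a 95% interval of 0.857 to 1.14 (adjusted p = 0.921).

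The ratio of Fkbp5 to Tsc22d3 counts within a library does not depend on scaling between libraries. It was 0.189 to 0.330 in naive and 0.456 to 0.566 in sham libraries, a difference of 1.08 on the log2 scale (exact two-sided permutation p = 0.00794, the smallest that 5 against 5 allows, adjusted p = 0.00794 over 3 ratios). The ratio was higher in every sham library than in every naive library. All 3 ratios were chosen with earlier results of these data known. Each pairs a gene that passed with a gene that did not, so these p-values are not independent support for an unequal change.

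**Figure D2:**
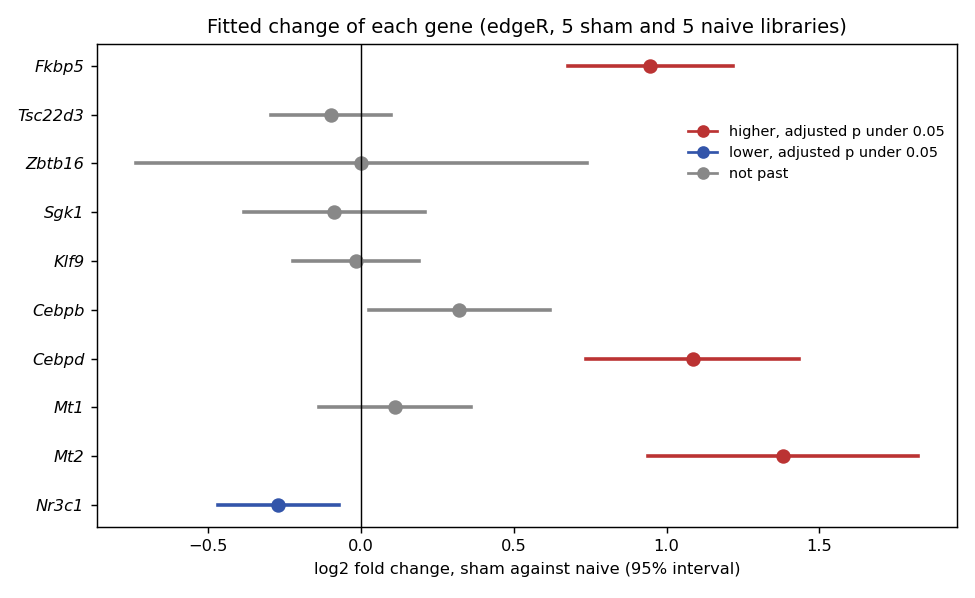
Fitted log2 fold change of each gene, sham against naive, with its 95% interval from edgeR (5 and 5 libraries). The intervals of Fkbp5, Cebpd and Mt2 lie above 0 and that of Nr3c1 below it; the interval of Cebpb also lies above 0 but its adjusted p did not pass, and Zbtb16 has the widest interval, from -0.74 to 0.74.

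Among sham libraries the 5 direct targets peaked in the same one. In sham 1 all 5, and Cebpb, had the highest value of the 5 sham libraries. Naive 4 was highest of the naive libraries for 4 of the 10 genes, Fkbp5, Zbtb16, Cebpb and Mt1. The share of all genes tested that peaked in sham 1 or in naive 4 was not counted. Whether these peaks are particular to the 10 genes was therefore not tested. Of the 45 pairs of genes, Zbtb16 and Sgk1 had the most alike deviations from their group means, with a root mean square difference of 0.44 between standardised profiles over 10 libraries, and Sgk1 and Cebpd the least alike (1.76). Sham 1 also held the highest level of the clock output factor Dbp, at 154 CPM against 80.5 to 96.7 in the other sham libraries and 33.7 to 52.4 in naive libraries. What part the hour of collection has in these values was not tested.

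**Figure D3:**
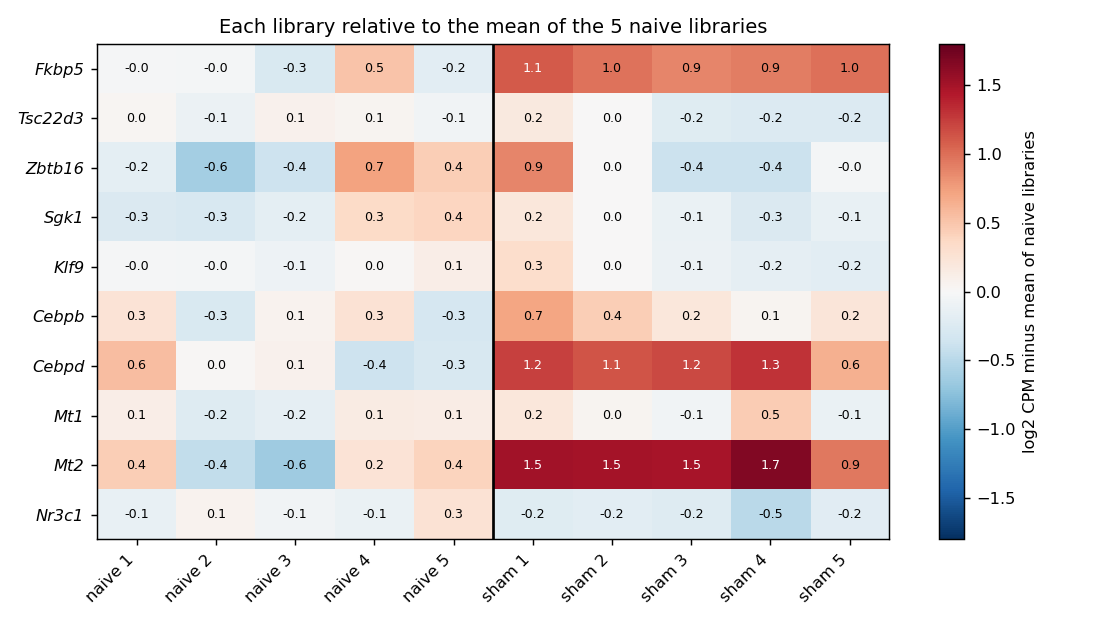
Log2 CPM of each gene in each library minus the mean of the 5 naive libraries (number in each cell; red higher, blue lower, vertical line between groups). Fkbp5, Cebpd and Mt2 are red in all 5 sham columns, whereas Zbtb16 is reddest in naive 4 and sham 1.

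C/EBP beta and C/EBP delta are leucine zipper factors that glucocorticoids, IL-6 and IL-1 all raise, and that drive acute phase genes. Cebpd (chromosome 16, 15887286 to 15891031, plus strand) was at 44.3, 30.7, 31.9, 23.4 and 24.6 CPM in naive libraries 1 to 5 and at 71.0, 66.3, 68.5, 74.1 and 47.0 CPM in sham libraries 1 to 5. Sham 5, the lowest sham library, was still above naive 1, the highest naive library. The rise was 2.12-fold with a 95% interval of 1.67 to 2.70 (log2 fold change 1.09 ± 0.16, SE, n = 5, edgeR adjusted p = 1.27e-04). Of its 3746 exon bases, 562 overlap Spidr on the other strand, and unstranded reads there cannot be told apart. Spidr stood at 1.48 ± 0.528 CPM in naive libraries and 2.70 ± 0.962 in sham (log2 fold change 0.91 ± 0.30, adjusted p = 0.0284), far below Cebpd.

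Cebpb (chromosome 2, 167688915 to 167690418, plus strand) was at 120, 83.4, 106, 121 and 82.0 CPM in naive libraries 1 to 5. Sham libraries 1 to 5 had 165, 137, 116, 105 and 117 CPM of Cebpb. The 2 highest values were in sham 1 and sham 2, and the other 3 sham libraries lay within the naive range. Its log2 fold change was 0.32 ± 0.14 (adjusted p = 0.0901), with fits between 0.21 and 0.60 over the alternatives and an adjusted p of 0.00182 to 0.232. It passed with library size alone, limma voom, no filter, the replicate number as a block, without sham 4, and without naive 1 and sham 4 together. Tmem189 on the other strand, which overlaps 20.7% of its exon bases, did not pass (log2 fold change 0.05 ± 0.08, adjusted p = 0.686). The Cebpd to Cebpb count ratio was 0.193 to 0.368 in naive and 0.401 to 0.708 in sham libraries, a difference of 0.77 on the log2 scale (exact two-sided permutation p = 0.00794, adjusted p = 0.00794). The groups did not overlap, and the choice of this pair with earlier results known limits its p-value too.

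Mt1 and Mt2 lie side by side on chromosome 8, Mt2 at 94172664 to 94173568 and Mt1 at 94179082 to 94180327, both on the plus strand. Their transcripts shared no 31-base stretch, so their reads are not expected to be split between them. Mt2 was at 25.5, 13.8, 12.01, 22.2 and 24.9 CPM in naive libraries 1 to 5 and at 53.7, 53.0, 52.7, 59.6 and 36.2 CPM in sham libraries 1 to 5. Sham 5 was lowest among sham libraries, as for Cebpd, and still above every naive library. The rise was 2.61-fold with a 95% interval of 1.92 to 3.54 (log2 fold change 1.38 ± 0.20, SE, n = 5, edgeR adjusted p = 1.73e-04), the largest of the 10 genes in this fit. The Mt2 counts carry a limit: 73.5% of its exon bases overlap the antisense gene Gm45774 of GENCODE M21, and unstranded reads there cannot be assigned to a strand. No count of Gm45774 was used here, and its part in the Mt2 value was not tested.

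Mt1, whose exons overlap no other gene, was at 183, 143, 150, 186 and 184 CPM in naive libraries 1 to 5. In sham libraries 1 to 5 Mt1 had 193, 174, 161, 231 and 155 CPM. Only sham 1 and sham 4 exceeded the highest naive library. Its fold of 1.08 had a 95% interval of 0.909 to 1.28 (adjusted p = 0.505), which does not reach the fold of Mt2. When libraries were scaled by their totals only, Mt1 passed as higher (log2 fold change 0.37, adjusted p = 0.0150), a scaling that also moved the median of all genes from -0.05 to 0.22. Within a library, Mt1 counts were 7.19 to 12.4 times those of Mt2 in naive and 3.05 to 4.26 times in sham libraries, a log2 difference of -1.32 (exact two-sided permutation p = 0.00794, adjusted p = 0.00794). This ratio was lower in every sham library than in every naive library, and the pair was likewise chosen with earlier results known. The overlap with Gm45774 also limits the Mt2 side of this ratio, and its part was not tested.

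**Figure D4:**
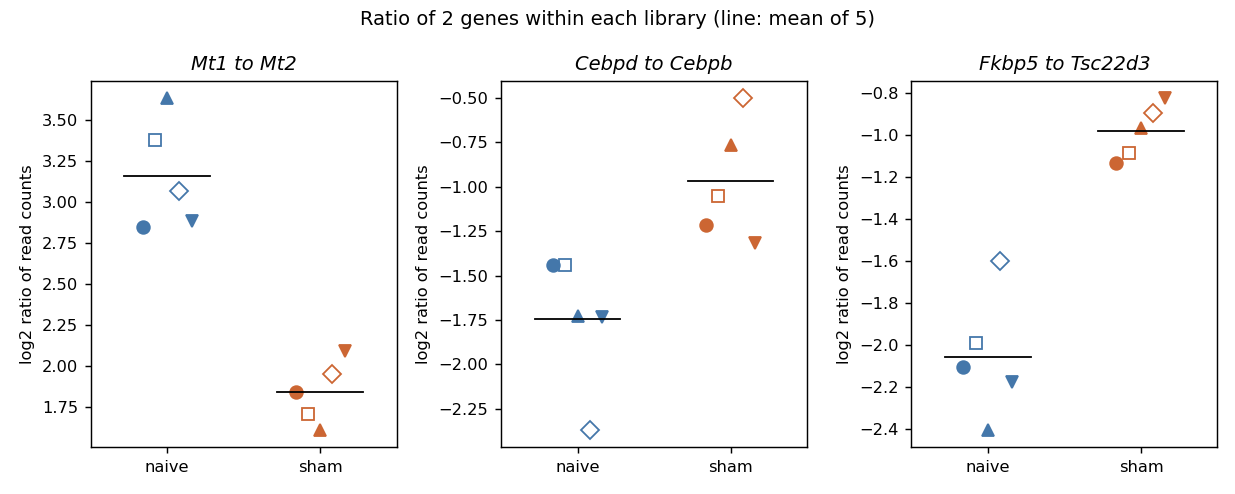
Log2 ratio of the read counts of 2 genes within each library, for Mt1 to Mt2, Cebpd to Cebpb and Fkbp5 to Tsc22d3 (points: libraries; line: mean of 5). In all 3 panels the naive and sham libraries do not overlap; the Mt1 to Mt2 ratio is lower and the other 2 are higher in sham libraries.

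Nr3c1, the receptor gene, was at 54.0, 61.9, 57.1, 54.8 and 71.2 CPM in naive libraries 1 to 5 and at 51.2, 52.1, 50.5, 42.7 and 51.8 CPM in sham libraries 1 to 5. Every sham library lay below every naive library, but the gap was small, from 52.1 in sham 2 to 54.0 in naive 1. The fold was 0.829 with a 95% interval of 0.722 to 0.951 (log2 fold change -0.27 ± 0.09, SE, n = 5, edgeR adjusted p = 0.0357). This call did not hold without naive 2 or 5 or without sham 2, 3, 4 or 5, with adjusted p reaching 0.117 without sham 4, nor with no filter (0.114), nor without naive 1 and sham 4 together. With library size alone the log2 fold change was -0.0074 (adjusted p = 0.970).

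Per kilobase of annotated exon, the naive level was highest for Mt1, at 136 ± 16.8 CPM per kb (SD, n = 5), followed by Cebpb at 68.2 ± 12.7. Mt2 (33.4 ± 10.8) and Klf9 (33.4 ± 1.89) did not differ beyond their spread, nor did Tsc22d3 (18.3 ± 0.968) and Zbtb16 (16.7 ± 6.69). Sgk1 (8.56 ± 2.02), Cebpd (8.27 ± 2.22) and Nr3c1 (7.78 ± 0.918) were alike within their spread, and Fkbp5 was lowest at 2.05 ± 0.473 CPM per kb. In sham libraries Mt2 reached 86.8 ± 14.9, level with Cebpb at 85.2 ± 15.8 CPM per kb, and Cebpd reached 17.5 ± 2.86. Exon length here is the union of all annotated exons, which for Mt1 includes transcripts that keep introns.

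Next come genes that hold, activate or assist the receptor. Of 21 tested genes for the receptor complex and steroid supply 0 rose, 5 fell and 16 did not pass (23.8% called, against 32.7% of all genes tested, with 15.5% lower and 17.2% higher; median log2 fold change -0.17). At an unadjusted p under 0.05, 7 genes of the list were lower and 0 higher, and DESeq2 called 0 and limma voom 1 higher. Fkbp4, the co-chaperone that competes with Fkbp5 in the receptor complex and helps it into the nucleus, fell from 617 ± 35.0 to 433 ± 28.5 CPM (log2 fold change -0.51 ± 0.08, adjusted p = 1.37e-04). The other 4 lower genes were the mineralocorticoid receptor Nr3c2 (-0.49 ± 0.13), the chaperone Hsp90ab1 (-0.35 ± 0.11), the coactivator Ncoa2 (-0.37) and the corepressor Ncor1 (-0.26), the last 2 named after their values were seen. Hsd11b1, which regenerates active glucocorticoid inside cells, averaged 4.76 ± 2.12 CPM without surgery and 5.19 ± 0.833 after it (adjusted p = 0.769). Hsp90ab1 did not pass without sham 2 or without sham 3 (adjusted p = 0.0506 each), and with library size alone neither it (-0.09) nor Nr3c2 (-0.23) passed. With that scaling 2 genes of this list rose and 1 fell, and without sham 2, 2 fell.

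A wider list of glucocorticoid-induced genes went both ways. Of 29 tested, 8 rose, 7 fell and 14 did not pass (51.7% called, against 32.7% of all genes tested; median 0.07). The iron-binding protein Lcn2 rose by 3.00 ± 0.20 on the log2 scale, the cell cycle inhibitor Cdkn1a by 0.76 ± 0.13 and the NF-kappaB inhibitor Nfkbia by 0.49 ± 0.09. Lcn2 is also a neutrophil product, and the neutrophil marker sums given above were higher in sham libraries too. Their part was not tested. Lower were Pdk4, which restrains pyruvate use, by -1.11 ± 0.15, the MAP kinase phosphatase Dusp1 by -0.60 ± 0.11 and the muscle ubiquitin ligase Fbxo32 by -0.45 ± 0.09. In all 6 the groups did not overlap, but these genes were picked by smallest p in each direction, which favours separation. Over all genes tested, every sham library lay above every naive library in 13.6% and below in 9.18%. In some other called genes of the list the groups overlapped. With library size alone this list had 15 higher and 2 lower genes, and Fbxo32 was at -0.19 and did not pass (adjusted p = 0.165).

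Of 16 tested relatives of the targets, 4 rose, 0 fell and 12 did not pass (25.0% called, against 32.7% of all genes tested; median 0.11). None was lower at an unadjusted p under 0.05 or with DESeq2, and limma voom called 1 lower. The rising genes were Cebpa, from 24.1 ± 4.42 to 62.1 ± 8.06 CPM (log2 fold change 1.37 ± 0.13, adjusted p = 6.36e-07), Cebpg at 0.41 ± 0.11, the collagen chaperone Fkbp10 at 1.44 ± 0.11 and, named after its value was seen, Klf6 at 0.40. With Cebpd, 3 of the 5 tested C/EBP family genes in the 2 lists rose, against 17.2% of all genes tested. Ddit3 and Cebpb did not pass. The family was not a list of its own and was grouped here with the values known. Mt3, a metallothionein best known from brain, averaged 0.969 CPM without surgery and 2.45 CPM after it, and did not pass (adjusted p = 0.148). Cebpa is also expressed by macrophages and adipocytes, and all 12 macrophage and monocyte markers rose (sums of 443 to 542 CPM in naive and 1395 to 1718 CPM in sham libraries), a part that was not tested. Adipocyte markers summed to 0.758 to 2.50 CPM in naive and 0.604 to 1.82 CPM in sham libraries.

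Zinc genes moved both ways, and more rose than fell. Of 18 tested for zinc sensing and transport 6 rose, 2 fell and 10 did not pass (44.4% called, against 32.7% of all genes tested). Of all genes tested, 17.2% were higher and 15.5% lower. The median log2 fold change of the list was 0.03. The zinc importers Slc39a6, Slc39a11 and Slc39a1 rose by 1.08 ± 0.15, 0.98 ± 0.17 and 0.41 ± 0.08. Slc30a9 and the importer Slc39a8 fell by 0.45 and by 1.01 on the log2 scale, of which Slc30a9 did not pass with library size alone (-0.19, adjusted p = 0.0748). Mtf1, the metal sensor that drives metallothionein genes, had means of 29.7 and 27.5 CPM (log2 fold change -0.11 ± 0.08, adjusted p = 0.322), and the exporter Slc30a1, another Mtf1 target, 18.5 ± 1.96 and 18.9 ± 2.37 CPM (adjusted p = 0.854).

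Genes of IL-6 and STAT3 signalling, an input to Cebpb, Cebpd and metallothionein genes, rose in 9 of 15 tested cases, fell in 2 and did not pass in 4 (73.3% called, against 32.7% of all genes tested, with 17.2% higher and 15.5% lower; median 0.33). The feedback inhibitor Socs3, a direct STAT3 target, rose from 14.9 ± 2.88 to 53.4 ± 4.24 CPM (log2 fold change 1.84 ± 0.12), and the receptor chain Il6ra by 1.04 ± 0.11. The list also holds 2 genes of IL-1 rather than IL-6 signalling. Of these the receptor gene Il1r1, counted among the 9, rose by 1.46 ± 0.11, and Il1b was not tested. The 2 lower genes, Jak1 (-0.33 ± 0.11) and Lifr (-0.28 ± 0.09), each lost their call when naive 4, naive 5, sham 2, sham 4 or sham 5 was left out, and this list then had 0 lower genes, as with library size alone. Il6 itself had 3 counts over the naive and 10 over the sham libraries and was not tested.

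Clock genes, some of which glucocorticoids set, went both ways: of 18, 4 rose, 6 fell and 8 did not pass (55.6% called, against 32.7% of all genes tested; median -0.16). Dbp, Nr1d1 and Ciart rose by 1.38 ± 0.18, 0.52 ± 0.11 and 0.92 ± 0.20, and Per1, a receptor target as well as a clock gene and named after its value was seen, by 0.57. Nfil3 and Cry1 fell by 0.78 and 0.97 on the log2 scale. With library size alone 3 genes of this list fell.

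**Figure D5:**
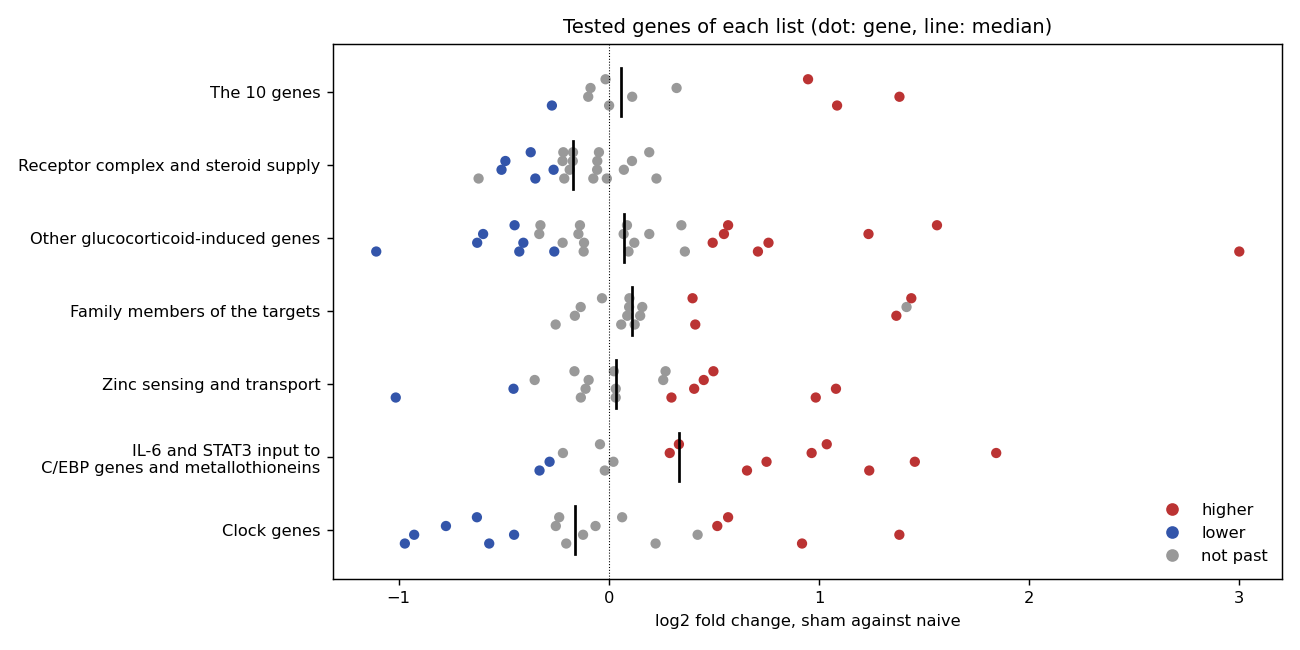
Log2 fold change, sham against naive, of each tested gene (dot) in the 10 genes and in 6 related lists, coloured by whether it was called higher, lower or neither; the vertical line marks each list's median. The receptor complex list has no gene called higher, and the IL-6 and STAT3 list has the highest median, at 0.33.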

How the data were processed

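The authors deposited whole-number read counts for each Ensembl gene and library, not normalised or pooled. Per the submitters' processing notes, HTSeq, Bowtie2, TopHat2 2.1.1, DESeq and edgeR were used with GRCm38, with no roles stated. Annotation release, counting mode and strand setting: not given in the sources used here. Per the labels' protocols, the library kit did not keep strand. The 41264 rows held 574 repeats of an Ensembl identifier with identical counts, which were collapsed to 40690 genes. Groups came from the sample titles, and all 10 sample columns were used.

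The low-count filter was edgeR 4.0.16's filterByExpr, with minimum count 10 and minimum total 15, which kept 13622 genes. Counts were scaled by TMM and tested with the robust quasi-likelihood F test on the group alone, Benjamini-Hochberg adjusted over all genes at 0.05. Standard errors were derived from F and the fold change, and 95% intervals use the fit's degrees of freedom. Ratios used counts plus 0.5 and an exact permutation of 252 splits. On simulated counts (13474 genes tested) 47.1% of 1.5-fold, 82.6% of 2-fold and 93.7% of 4-fold changes were recovered, with 7 of 155 calls false. Only 68, 69 and 63 genes were changed by these folds, a far smaller share than the 32.7% called in the data. The recovery rates therefore do not give the power of the test on the real counts.

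The 10 genes, the 6 related lists (127 memberships, 117 tested), the 12 marker lists and the tests were all chosen with earlier results of these data known. Named genes were the 10, up to 3 of smallest p in each direction per list, genes needed for cell type checks, and the 3 genes most alike in pattern to Fkbp5 and to Mt1; a gene that the rule names in the clock list is not reported here. Coordinates, exon lengths and shared 31-base stretches are from GENCODE M21 on GRCm38. Alternatives were library size alone, upper quartile and RLE factors, DESeq2 1.42.0, limma 3.58.1 voom with sample weights, no robust estimation, other filters, the replicate number as a block and each library left out; naive 1 and sham 4 left out together was added after seeing the data. All ran in R 4.3.3.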

Additional observations from a re-analysis of the deposited data

Results flagged for a closer look

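Of 20 gene and group combinations, 4 had a library standing apart from the other 4 of its group by more than the critical share of the range (0.71); chance gives about 1 in 20. Fkbp5 was highest in naive 4, at 27.1 CPM, and its log2 fold change was 1.10 without that library. Zbtb16 was highest in sham 1, at 152 CPM, and its log2 fold change was -0.28 without it (edgeR adjusted p = 0.457). Cebpd was lowest in sham 5, at 47.0 CPM, and remained higher in sham without it. Nr3c1 was lowest in sham 4, at 42.7 CPM, and did not pass without it (edgeR adjusted p = 0.117).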

How the results depend on the processing

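Fkbp5, Cebpd and Mt2 were called higher under all 20 alternatives, with log2 fold changes of 0.88 to 1.22, 1.00 to 1.35 and 1.24 to 1.71. With library size alone there were 4473 higher and 283 lower genes in the table, 5 higher and 0 lower of the 10, and 2 and 1 for the receptor complex, 15 and 2 for other induced genes, 9 higher relatives, 1 lower zinc gene, 0 lower IL-6 and STAT3 genes and 3 lower clock genes. Cebpb was then at 0.60, Mt1 at 0.37 and Nr3c1 at -0.0074. With limma voom 3269 genes were lower, 1 receptor complex gene was higher, 1 relative was lower and Cebpb passed at 0.36. Without a filter 0 of the 10 and 1 IL-6 and STAT3 gene were lower, Cebpb passed at 0.35 and Nr3c1 did not at -0.24. Leaving out single libraries gave 0 to 1 lower of the 10, 0 to 1 higher and 2 to 6 lower receptor complex genes, 0 to 2 lower IL-6 and STAT3 genes, Cebpb at 0.21 to 0.42 and Nr3c1 at -0.31 to -0.19. Without naive 1 and sham 4 together, 0 of the 10 were lower, 1 receptor complex gene was higher, Cebpb passed at 0.47 and Nr3c1 did not at -0.23 (edgeR adjusted p = 0.050). The cause of these shifts was not tested.

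Nothing in the labels ties same-numbered naive and sham libraries together. Their deviations correlated at 0.209, 0.0290, 0.00397, 0.268 and 0.260, so not every pair exceeded 0.1. Libraries 1, 4 and 5 of each group matched their own number best, a hint from the data and not from the design, and libraries 2 and 3 did not. With the replicate block 1 receptor complex gene was higher and 8 lower, 1 relative was lower, and Cebpb passed at 0.32, while Nr3c1 stayed lower at -0.27. With sign flips within pairs (replicate block) the 3 ratios stayed at -1.32, 0.77 and 1.08, with p = 0.0625 by exact permutation, the smallest that 5 pairs allow.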

Other observations

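Over 10 libraries, and among 11812 genes whose mean log2 CPM reached 1, the genes whose standardised deviations from the group means were most like those of Fkbp5 were Cdca7, Becn1 and Vamp3, with root mean square differences of 0.47, 0.47 and 0.47. Becn1, which acts in autophagy, averaged 29.7 ± 1.88 CPM without surgery and 30.2 ± 0.630 CPM after it (SD, n = 5), and Vamp3 did not pass either (log2 fold change -0.13 ± 0.09). Cdca7 rose by 1.17 ± 0.24 on the log2 scale (edgeR adjusted p = 0.00173). For Mt1 the most alike genes were Apip, Ddn and Ppig (0.38, 0.41 and 0.42). These genes were picked as the smallest differences, so every other gene is less alike by selection. The neighbour Mt2 stood at 0.65 from Mt1, where pairs among the 10 genes ran from 0.44 to 1.76.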
